A study of Mus musculus with 3 samples.

Results

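The genes described here are 8 that mark granulated effector cells of allergy and parasite defence: Prg2 and Epx for eosinophils, and Cpa3, Mcpt8, Fcer1a, Ms4a2, Il1rl1 and Hdc for mast cells and basophils. Every probe set annotated to one of them alone was taken, which gave 9 probe sets for 7 genes, out of 45101 probe sets and 18194 named genes. Il1rl1, the receptor for interleukin-33, carried no probe set in the annotation used and was not analysed here. Of the 9 probe sets, 8 reached the floor defined below on at least 1 array, and so did all 7 genes by their brightest probe set. Prg2, Epx, Cpa3, Mcpt8, Hdc and the brighter Ms4a2 probe set gave signals well over the floor on at least 1 array. Fcer1a, the defining chain of the IgE receptor, hardly reached it. The label names the genes chosen, and whether cells of these lineages were present was not tested.

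RNA came from LSK cells, the lineage-negative, Sca-1-positive, Kit-positive fraction of mouse blood-forming tissue that contains stem cells and multipotent progenitors. There was 1 array for each of 3 genotypes: cells lacking both p53 and the ETS factor Mef (DKO), cells lacking p53 (p53 KO), and wild type (WT). The alleles, age and number of animals behind an array are not given in the sources used here. DKO and p53 KO cells share the absence of p53, so the design sets p53 loss against WT, and added Mef loss against p53 loss alone. With a single array per genotype there is no replicate spread, no difference has an error or a p-value, and every comparison is between a pair of arrays.

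The values are MAS5 signal intensities, scaled by the authors so that the 2% trimmed mean was 500.003 on each array. The median signal was 129 on the DKO, 105 on the p53 KO and 98.0 on the WT array. Signals under 110.4, the median of all values, were set to this floor before log2 was taken, so a difference from an array under it is a lower bound. A gene is represented by its brightest probe set, and 12597 genes reached the floor somewhere. Elf4, which encodes Mef, gave 151 on the DKO, 182 on the p53 KO and 57.4 on the WT array, so it does not check the DKO label, and p53 itself was not analysed here. All directions therefore rest on the labels of the arrays.

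Eosinophils, basophils and mast cells arise from myeloid progenitors in which GATA factors act together with C/EBP factors, and each stores its effector proteins in granules. Prg2 encodes major basic protein, the core of the eosinophil granule, and Epx encodes eosinophil peroxidase. Cpa3 encodes the mast cell carboxypeptidase, which basophils and early progenitors also express, and Mcpt8 a serine protease that marks mouse basophils. Fcer1a and Ms4a2 encode the alpha and beta chains of the high-affinity IgE receptor, and Hdc encodes the histidine decarboxylase that makes histamine. Hdc expression has also been described in myeloid-biased stem cells.

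Start regions of 7 of the 8 members, all but Prg2, matched the RefSeq promoter table. They are shown because GATA and C/EBP factors are the textbook regulators of these lineages. The 250 bases before the start site are printed for the 4 members with a listed promoter that differed at least 2-fold between arrays (Epx, Cpa3, Mcpt8, Hdc) and for Ms4a2, which had the most GATA matches among the measured members. The sequences are from RefSeq, build GRCm38.p6, 5′ to 3′ in the direction of the gene. Capitals mark GATA with A or T before it and A or G after it, and the C/EBP letters TTGCNNAA, each searched on both strands. No such match overlapped another. The windows are chr11:87875537-87875786 on the minus strand for Epx, chr3:20242182-20242431 on the minus strand for Cpa3, chr14:56085198-56085447 on the minus strand for Mcpt8, chr2:126618679-126618928 on the minus strand for Hdc and chr19:11623720-11623969 on the minus strand for Ms4a2.
Epx: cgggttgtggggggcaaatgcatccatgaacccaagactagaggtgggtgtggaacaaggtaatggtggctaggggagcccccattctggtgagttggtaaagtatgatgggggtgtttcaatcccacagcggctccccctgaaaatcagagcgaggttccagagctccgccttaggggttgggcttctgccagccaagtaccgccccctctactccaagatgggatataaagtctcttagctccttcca
Cpa3: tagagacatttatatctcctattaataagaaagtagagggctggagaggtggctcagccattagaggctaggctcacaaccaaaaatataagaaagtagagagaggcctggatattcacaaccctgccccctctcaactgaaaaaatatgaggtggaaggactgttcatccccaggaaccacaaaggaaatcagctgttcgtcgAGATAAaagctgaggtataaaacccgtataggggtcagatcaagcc
Mcpt8: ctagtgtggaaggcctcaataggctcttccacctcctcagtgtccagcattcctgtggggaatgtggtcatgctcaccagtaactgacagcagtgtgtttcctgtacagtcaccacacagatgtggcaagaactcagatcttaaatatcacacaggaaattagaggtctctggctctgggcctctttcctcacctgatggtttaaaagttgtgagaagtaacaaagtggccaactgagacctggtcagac
Hdc: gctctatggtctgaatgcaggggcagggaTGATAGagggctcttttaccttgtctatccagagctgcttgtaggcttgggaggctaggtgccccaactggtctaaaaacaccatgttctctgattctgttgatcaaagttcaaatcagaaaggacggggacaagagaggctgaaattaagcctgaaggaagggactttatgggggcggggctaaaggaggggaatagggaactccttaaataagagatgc
Ms4a2: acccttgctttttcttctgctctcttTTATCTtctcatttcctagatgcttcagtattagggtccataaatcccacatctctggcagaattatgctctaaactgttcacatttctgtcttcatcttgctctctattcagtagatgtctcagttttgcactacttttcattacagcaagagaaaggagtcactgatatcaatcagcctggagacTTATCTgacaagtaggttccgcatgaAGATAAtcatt
The Cpa3 window held 1 GATA match, whose first base lies 46 bases before the start site, and the Hdc window held 1, at 221 bases before it. The Ms4a2 window held 3, at 224, 37 and 11 bases before the start. Neither the Epx nor the Mcpt8 window held one. The Hdc and Mcpt8 windows lie inside the annotated gene, which runs to base 126624025 for Hdc and 56085499 for Mcpt8. The start sites used for them are thus not the outermost of the gene. The Fcer1a window, not printed, held a GATA match at 92 and a C/EBP match at 118 bases before the start. Il1rl1, also not printed, has 2 listed start sites. Its first window held 5 GATA matches and 1 C/EBP match, and its second held 1 GATA match. Of the 8 listed windows of the members, 6 held a GATA match. Of 32851 promoter windows of the same length in the table, 26.5% held at least 1 such GATA word and 9.56% the C/EBP word. A GATA word is thus common in such windows, and a match is a description of letters only.

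The eosinophil genes moved together over the arrays. Prg2 had a signal of 272 on the DKO array, 4383 on p53 KO and 1223 on WT. Epx had 101 on the DKO array, which is under the floor, 1589.5 on p53 KO and 413 on WT. For both genes the p53 KO array was highest, the WT array in the middle and the DKO array lowest. On p53 KO against WT, Prg2 was 3.58-fold higher (log2 difference 1.84) and Epx 3.85-fold higher (1.94). On DKO against WT, Prg2 was 4.49-fold lower (log2 difference -2.17) and Epx at least 3.74-fold lower (-1.90). With the floor at the 75th percentile of signals (448.4), Epx lay under it on DKO and WT alike, which left no value for that comparison. The widest gap was that of DKO against p53 KO, where Prg2 was 16.1-fold lower (-4.01) and Epx at least 14.4-fold lower (-3.85). In bulk RNA, fewer eosinophil-lineage cells in a sort and less of these transcripts per cell cannot be told apart.

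Cpa3 ran the other way. Its signal was 2019.7 on the DKO array, 497 on p53 KO and 613 on WT. DKO was highest by a clear step, while the other arrays lay close together. The DKO signal was 3.30-fold that of WT (log2 difference 1.72) and 4.06-fold that of p53 KO (2.02), and p53 KO against WT differed by -0.30. Cpa3 was the 1 member that was at least 2-fold higher on DKO against either of the other arrays.

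Mcpt8 and Hdc formed a further pattern, with p53 KO highest and WT lowest. The basophil protease gene Mcpt8 had a signal of 381 on the DKO array, 652 on p53 KO and 193 on WT. It was 3.37-fold higher on p53 KO against WT (log2 difference 1.75). On DKO against WT it was 1.97-fold higher (0.98), just short of 2-fold, and on DKO against p53 KO it differed by -0.78. With the floor at 448.4 the p53 KO against WT difference of Mcpt8 was at least 0.54, under 2-fold. Hdc had a signal of 1527 on the DKO array, 2351 on p53 KO and 897 on WT, which made it 2.62-fold higher on p53 KO against WT (1.39), 1.70-fold higher on DKO against WT (0.77) and -0.62 on DKO against p53 KO. A further Hdc probe set had 31.6 on the DKO, 299 on the p53 KO and 15.7 on the WT array. It was over the floor on p53 KO alone, so it was at least 2.71-fold higher on p53 KO against WT and at least 2.71-fold lower on DKO against p53 KO (-1.44). With the mean of both probe sets, Hdc differed by -1.03 on DKO against p53 KO, past 2-fold. Both Hdc probe sets were therefore highest on p53 KO, but the second gave no value for DKO against WT, since both arrays lay under the floor.

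The chains of the IgE receptor stayed low or level. Fcer1a had a signal of 138 on the DKO array and was under the floor on the others, at 92.8 on p53 KO and 73.8 on WT. Its DKO value was at least 1.25-fold higher than either. For Ms4a2, the brightest probe set had 539.8 on the DKO array, 444 on p53 KO and 441 on WT. Against WT, its log2 difference was 0.29 on DKO and 0.01 on p53 KO, and it was 0.28 on DKO against p53 KO. The other Ms4a2 probe set was under the floor throughout, at 59.2 on DKO, 12.1 on p53 KO and 40.6 on WT. The probe sets thus disagreed on whether Ms4a2 was detected, and neither showed a 2-fold difference that could be measured.

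**Figure D1:**
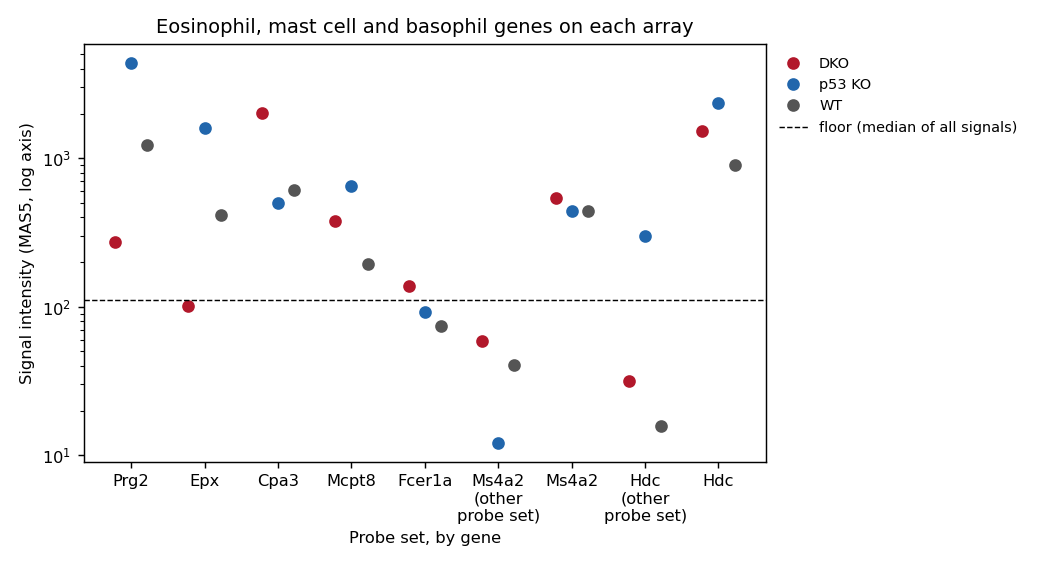
Signal intensity (log axis) of the 9 probe sets on the DKO, p53 KO and WT arrays, 1 point per array, with the floor of 110.4 dashed. Prg2 and Epx are highest on p53 KO and lowest on DKO, Cpa3 is highest on DKO at 2019.7, and Fcer1a lies near the floor.

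Counted over the 7 measured members, 4 were at least 2-fold higher on p53 KO against WT, namely Prg2, Epx, Mcpt8 and Hdc, and 0 were at least 2-fold lower. Of all 12597 measured genes, 6.51% were that much higher and 3.19% that much lower. On DKO against WT, 1 of 7 was at least 2-fold higher (Cpa3) beside 5.22% of all measured genes, and 2 of 7 were lower (Prg2 and Epx) beside 3.1%. On DKO against p53 KO, 1 of 7 was higher (Cpa3) beside 4.1%, and 2 of 7 were lower (Prg2 and Epx) beside 5.93%. The members' median log2 difference was 1.39 on p53 KO against WT, where that of all measured genes was 0. It was 0.32 against 0.07 over all measured genes on DKO against WT, and -0.62 against 0.11 on DKO against p53 KO. The first 2 of these comparisons share the WT array, and the knockout arrays recur in the third, so the counts are not independent of each other. The members were chosen with earlier results of these data known, so their share above the background is a description.

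**Figure D2:**
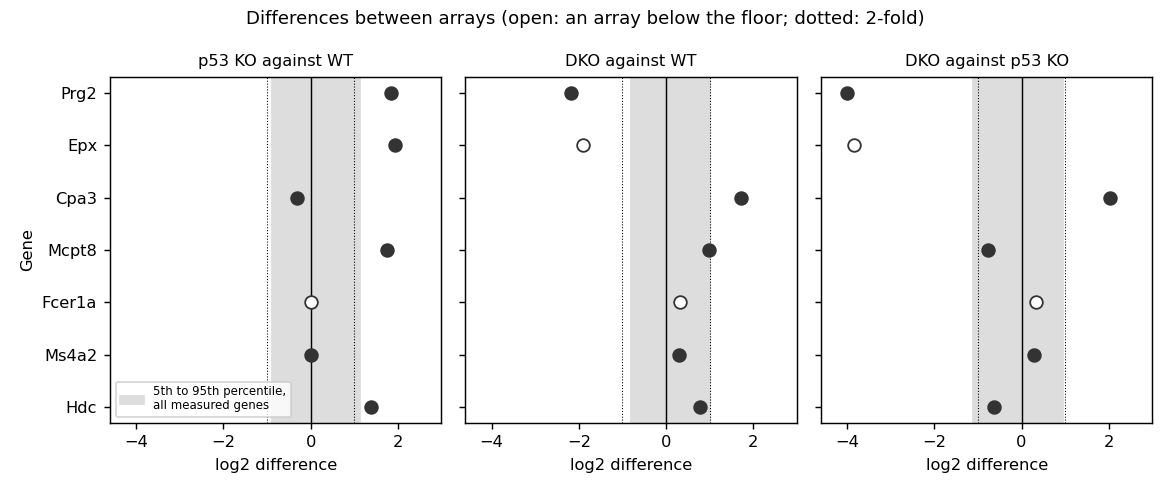
Log2 difference of each of the 7 measured members in 3 comparisons, with the span from the 5th to the 95th percentile of all 12597 measured genes in grey. Open points involve an array under the floor. Prg2 and Epx lie to the right on p53 KO against WT and far to the left on DKO against p53 KO (-4.01 and -3.85), where Cpa3 lies to the right (2.02).

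The members thus did not share 1 pattern. As a measure of likeness, the Euclidean distance between log2 signals centred on each gene's mean was taken over the 3 arrays. It was 0.19 between Prg2 and Epx, for which the floor sets the DKO value of Epx, and 0.26 between Mcpt8 and Hdc. None is given for Fcer1a, whose profile is set by the floor on p53 KO and WT. It was 4.32 between Prg2 and Cpa3, the farthest pair. The eosinophil genes were also 2.44 to 2.61 from Mcpt8 and Hdc, mainly through the DKO array. With only 3 arrays per profile, many genes share a profile by this measure.

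Among 7699 other named genes whose brightest array reached 448.4, the 75th percentile of signals, 7 lay within a distance of 0.5 of Prg2 and 7 of Epx (0.0909% each). The nearest to Prg2 were Epx at 0.19, Rhd at 0.28 and Trim10 at 0.40. Rhd encodes the red cell Rh antigen and had 495 on DKO, 7095 on p53 KO and 2606 on WT. The nearest to Epx were Prg2, Trim10 at 0.28 and Mgll, a monoglyceride lipase gene, at 0.32. Profiles closest to the eosinophil genes thus included genes of other lineages. For Cpa3, 33 genes lay within 0.5 (0.429%), the nearest being Abcb1b at 0.06, which encodes a drug efflux pump and had 1915 on DKO, 467 on p53 KO and 549 on WT, then Nlrc3 at 0.07 and P4htm at 0.13. Mcpt8 had 165 such genes (2.14%) and Hdc 431 (5.60%), so their profiles were common ones. The nearest to Mcpt8 were Lbp at 0.03, Ear3 at 0.06 and Klrd1 at 0.07. Ear3 belongs to the eosinophil-associated ribonucleases, near-identical copies that its probe set, marked as cross-hybridising by its suffix, may not tell apart. The nearest to Hdc were Rdh12 at 0.01, the platelet factor gene Pf4 at 0.04 and Serpinb1a at 0.05.

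Other genes of these lineages, from lists of 114 genes beside the members, were then examined. Of these, 100 were named by a probe set and 81 were measured. On p53 KO against WT, 18 of the 81 were at least 2-fold higher and 0 lower, with a median log2 difference of 0.27. On DKO against WT, 11 were higher and 2 lower, with a median of 0.25. On DKO against p53 KO, 4 were higher and 14 lower, with a median of 0.07. Of all measured genes, 6.51% were at least 2-fold higher and 3.19% lower on p53 KO against WT. The shares were 5.22% and 3.1% on DKO against WT, and 4.1% and 5.93% on DKO against p53 KO. These shares also stand beside the count of each list below, and no list was tested against them.

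Eosinophil genes beyond Prg2 and Epx followed them in part. Of 5 measured, 3 were at least 2-fold higher on p53 KO against WT, and the same 3 were lower on DKO against p53 KO, with list medians of 1.15 and -1.30. On DKO against WT, where Prg2 and Epx were lower, 0 of the 5 were at least 2-fold higher or lower, and the list median was 0. Prg3, which encodes a homologue of major basic protein, had 27.9 on DKO, 502 on p53 KO and 34.4 on WT. It passed the floor on p53 KO alone and was at least 2.19 higher on the log2 scale against WT. Adgre1, which encodes F4/80 of macrophages and eosinophils, had 463 on DKO, 1139 on p53 KO and 505 on WT (1.17 on p53 KO against WT). The 3rd was the lipoxygenase gene Alox15, named after its values were seen, at 26.2 on DKO, 401 on p53 KO and 181 on WT. The eosinophil receptors did not share this. Il5ra, the receptor chain for interleukin-5, had 151 on DKO, 9.26 on p53 KO and 31.3 on WT, over the floor on DKO alone. The receptor gene Ccr3 was under the floor on all 3 arrays, at 7.68, 23.1 and 6.79 on DKO, p53 KO and WT. The lectin gene Siglecf was level, at 468 on DKO, 427 on p53 KO and 436 on WT. The granule genes Prg2, Epx and Prg3 were thus highest on p53 KO. There the receptor genes Il5ra and Ccr3 lay under the floor, while Siglecf was over it.

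Proteases of mature mast cells gave little signal. The chymase gene Cma1 had 115 on DKO, 82.1 on p53 KO and 60.0 on WT, and the chymase gene Mcpt4 had 11.1, 4.08 and 7.98 in the same order. For the tryptase gene Tpsb2, the probe set used had 41.1 on DKO, 72.5 on p53 KO and 80.9 on WT, and the other had 124, 13.6 and 13.2 in that order. Of 9 other named proteases, 4 were measured, with 0 at least 2-fold different on p53 KO against WT, or 1 higher after quantile normalization or cyclic loess. The 1 that differed on DKO against WT was Ctsg, cathepsin G of mast cells and neutrophils, at 14769.9 on DKO, 10135 on p53 KO and 5071 on WT (log2 difference 1.54, and 0.999 on p53 KO against WT, at the edge of 2-fold). The high Cpa3 signal on DKO therefore stood beside chymase and tryptase genes near or under the floor.

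In the IgE receptor pathway, 14 other genes were measured, and 2 were at least 2-fold higher on p53 KO against WT. Fcer1g, the signalling chain that several Fc receptors of myeloid cells share, had 317 on DKO, 1146 on p53 KO and 350 on WT (1.71 on p53 KO against WT, and -1.85 on DKO against p53 KO). Plcg2, a phospholipase of receptor signalling, had 6672 on DKO, 5936 on p53 KO and 2925 on WT (1.02 on p53 KO and 1.19 on DKO, each against WT). Syk, the kinase downstream of Fcer1g, had 4053 on DKO, 5028 on p53 KO and 3091 on WT, under 2-fold throughout. Fcer1g thus differed over 2-fold on p53 KO against WT, while Ms4a2 did not and Fcer1a lay under the floor on both arrays.

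Cytokine receptors showed 3 of 10 measured genes at least 2-fold higher on p53 KO against WT and 2 of 10 on DKO against WT. Csf2rb, the shared beta chain for interleukin-3, interleukin-5 and GM-CSF, had 1604.5 on DKO, 2591 on p53 KO and 842 on WT (1.62 on p53 KO against WT). Its other probe set, dim throughout and under the floor on WT, gave at least 0.23. Csf2rb2, the chain specific to interleukin-3 in mice, had 397 on DKO, 785 on p53 KO and 299.5 on WT (1.39). Csf2ra, the GM-CSF alpha chain, had 314 on DKO, 663 on p53 KO and 372 on WT, a log2 difference of -1.08 on DKO against p53 KO, whereas its other probe set gave -0.52. Il7r, a lymphoid receptor that also serves TSLP signalling, had 1001 on DKO, 1386 on p53 KO and 334 on WT (2.05 and 1.58 for p53 KO and DKO against WT, where its other probe set, under the floor on WT, gave at least 1.11 and 0.63). Kit, the receptor for stem cell factor on mast cells and on LSK cells, had 4873 on DKO, 2522 on p53 KO and 4996 on WT, or -0.99 on p53 KO against WT and -0.04 on DKO against WT. Il4ra, the receptor for interleukin-4, named after its values were seen, had 357 on DKO, 206 on p53 KO and 128 on WT (1.48 on DKO against WT). Il1rap, the co-receptor of Il1rl1, had 543 on DKO, 660.0 on p53 KO and 464 on WT.

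Mediator genes were mixed. Alox5, the enzyme that begins leukotriene synthesis, had 536 on DKO, 1404 on p53 KO and 461 on WT (1.61 on p53 KO against WT), and Alox5ap, its activating protein, had 7972.5, 10625 and 4744 in that order (1.16). These were the 2 of 6 measured lipid mediator genes that were at least 2-fold higher. Slc18a2, which loads histamine and serotonin into granules, followed the order of Cpa3, at 714 on DKO, 352 on p53 KO and 436 on WT (1.02 on DKO against p53 KO). Srgn, the granule proteoglycan, was level at 11722, 11306 and 11954 on DKO, p53 KO and WT. Of 5 measured cytokines, the chemokine gene Ccl3 was at least 2-fold higher on DKO against WT, at 454 on DKO, 217 on p53 KO and 91.1 on WT (at least 2.04). The mediators thus included genes that peaked on p53 KO and others that peaked on DKO.

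Among surface genes, 3 of 10 measured were at least 2-fold higher on p53 KO against WT. The paired receptor gene Pilra had 164 on DKO, 565 on p53 KO and 142 on WT (1.99), and Pilrb1 had 616 on DKO, 1849.7 on p53 KO and 744 on WT (1.31). Cd33, named after its values were seen, was the 3rd (1.04). Cd34, a marker of progenitors and mast cells, had 6633 on DKO, 2442 on p53 KO and 2230.4 on WT (1.57 on DKO against WT), and the activation marker Cd69 had 563 on DKO, 248 on p53 KO and 205 on WT (1.46). Cd34 and Cd69 thus shared the DKO peak of Cpa3.

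Of the regulators, Gata1, which drives eosinophil, mast cell and red cell programmes, had 1422 on DKO, 3855 on p53 KO and 4923 on WT, a log2 difference of -1.79 on DKO against WT and -0.35 on p53 KO against WT. Gata2, needed for mast cells and basophils and for stem cells, had 2024 on DKO, 1297 on p53 KO and 1590.1 on WT, under 2-fold throughout. Its other probe set kept that order across arrays. Gata1 was thus lowest and Gata2 highest on DKO, the array where Prg2 and Epx were lowest and Cpa3 was highest. On p53 KO, where Prg2 and Epx were highest, Gata1 was lower than on WT. A link between these regulators and the members was not tested. Mitf, a mast cell regulator, had 851 on DKO, 560.1 on p53 KO and 507 on WT. Cebpa had 297 on DKO and 252 on p53 KO but was under the floor on WT at 96.5, so it was at least 1.43 and 1.19 higher. Spi1, which encodes PU.1, had 837 on DKO, 618 on p53 KO and 368 on WT (1.18 on DKO against WT), and Irf8, a monocyte factor, had 3816 on DKO, 4541 on p53 KO and 1798 on WT (1.09 and 1.34 for DKO and p53 KO against WT). The other Irf8 probe set had 913 on DKO, 828 on p53 KO and 567 on WT, so it was under 2-fold on both (0.69 and 0.55) and highest on DKO. Id2 had 985 on DKO, 2817 on p53 KO and 777 on WT (1.86 on p53 KO against WT), while its other probe sets were at or under the floor. In all, 5 of 21 measured regulators were at least 2-fold higher on p53 KO against WT and 0 were lower, the higher ones being Id2, Irf8, Cebpa and, named after their values were seen, Cebpb and Bhlhe40. On DKO against WT, 4 were higher (Cebpa, Spi1, Irf8 and Ikzf2) and 2 lower (Gata1 and its cofactor gene Zfpm1), with Ikzf2 and Zfpm1 also named after their values were seen. Irf8 counts in both by its brighter probe set alone. Cebpe carried no probe set of its own name in the annotation used.

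**Figure D3:**
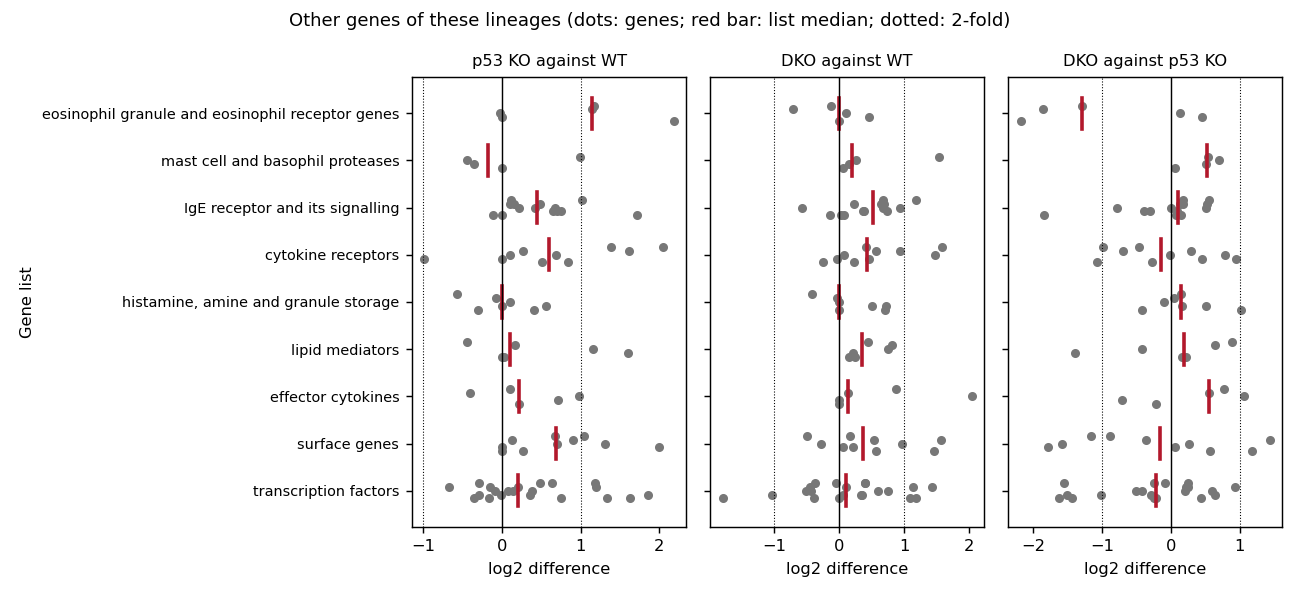
Log2 differences of the measured genes of 9 lists, members left out, in 3 comparisons, with 1 dot per gene and list medians in red. The median of the eosinophil list is -1.30 on DKO against p53 KO and 0 on DKO against WT.

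Markers of other blood cells also differed between these arrays. Summed over 12 neutrophil genes, all of them measured, the signal was 119060 on DKO, 239977 on p53 KO and 135611 on WT, and 7 of 12 genes were at least 2-fold higher on p53 KO against WT. For 9 monocyte and macrophage genes the sum was 16771 on DKO, 35615 on p53 KO and 10733 on WT, with 9 of 9 higher by that measure. For 8 red cell genes it was 25129 on DKO, 83698 on p53 KO and 94587 on WT, with 6 of 8 at least 2-fold lower on DKO against WT and, on p53 KO against WT, 2 higher and 2 lower. These sums follow the eosinophil genes in being highest on p53 KO for neutrophil and monocyte genes, and lowest on DKO for neutrophil and red cell genes. The red cell genes Alas2, Epb42 and Car2 were, like Prg2 and Epx, highest on p53 KO and lowest on DKO. Alas2 had 1091 on DKO, 11459 on p53 KO and 1787 on WT, and Epb42 had 408, 6526 and 1199 in that order. The other red cell genes of the list were highest on WT. The neutrophil genes did not all follow their sum, since on DKO against WT 2 were at least 2-fold higher and 2 lower. The primary granule genes Elane, Mpo and Prtn3 were higher on both knockout arrays than on WT. Elane had 2308 on DKO, 1719 on p53 KO and 800.1 on WT. Mpo was nearly equal on DKO and p53 KO (27120 and 27108, with 14665 on WT), as was Prtn3 (11025 and 10581, with 5508 on WT). The later granule genes Ltf and Camp were lowest on DKO.

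The sum over 7 megakaryocyte genes was 7242 on DKO, 12780.3 on p53 KO and 4206 on WT, and that over 7 B cell genes was 2540.4, 5804 and 1657 in that order. Both sums have the order of Mcpt8 and Hdc, with p53 KO highest and WT lowest. All 7 B cell genes kept this order, but the megakaryocyte genes did not all do so. Itga2b (2366 on DKO, 1975 on p53 KO and 1215 on WT) and Gp1bb (350, 327 and 177) were highest on DKO. Ppbp was lowest there, at 118 on DKO, 3292 on p53 KO and 158 on WT. The other megakaryocyte genes of the list kept the order. The 5 named LSK genes Kit, Cd34, Flt3, Slamf1 and Procr summed to 17402 on DKO, 7787 on p53 KO and 10635 on WT, the order of Cpa3, but among the 5 only Flt3 had that order by itself. Ly6a, which encodes Sca-1, carried no probe set of its own name in the annotation used. No marker was listed at 0. The part of other cell types, or of their progenitors, in the differences of the 7 members was not tested.

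**Figure D4:**
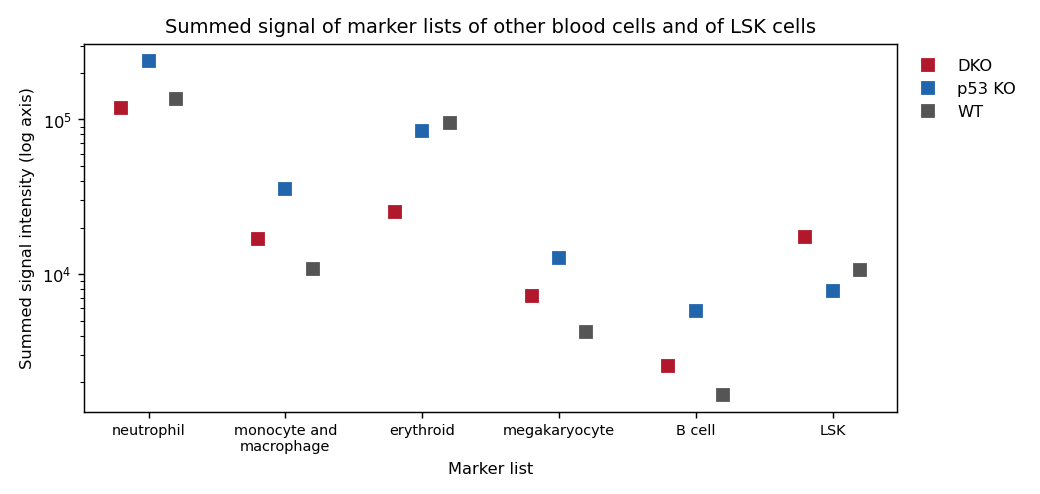
Summed signal intensity (log axis) of 6 marker lists on the DKO, p53 KO and WT arrays, 1 point per array. Neutrophil, monocyte, megakaryocyte and B cell sums are highest on p53 KO, the red cell sum is highest on WT (94587), and the LSK sum is highest on DKO (17402).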

How the data were processed

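Expression was measured on 3 Affymetrix arrays, 1 per genotype. The deposited values are linear signal intensities, made by the authors with GCOS and MAS5, per the submitters' processing notes, with no version given in the sources used here. All 3 value columns were matched to an array by sample. Probe sets with 1 gene symbol (34958 of 45101) were named from the platform annotation, and 34754 of them were updated through the Entrez ID against RefSeq genes of GRCm38.p6. Those with several symbols (932) or none (9211) were left unnamed. Signals were floored at 110.4, log2 was taken, and the probe set with the highest mean signal stood for a gene. No test was made, and arrays set the limit on precision. Differences are the array named first minus the other.

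The text names all members, up to 4 further genes of each list that differed at least 2-fold with a brighter array at or over 448.4, 12 fixed genes, and the 3 nearest profiles of each member that differed at least 2-fold. Genes given for context outside this rule were chosen after their values were seen: Alox15, Ccr3, Siglecf, Syk, Il1rap, Il4ra, Srgn, Cd33, Cebpb, Bhlhe40, Ikzf2, Zfpm1 and Elf4. So were the neutrophil, red cell and megakaryocyte markers named singly. Members, lists and rules were chosen with earlier results of these data known. The calculation was tested on simulated data. Alternatives used quantile and cyclic loess normalization (limma 3.58.1, R 4.3.3, 3 iterations), rescaling, other floors (25th or 75th percentile), a pseudocount of 32, other probe set rules, and thresholds of 1.5-fold and 3-fold. Other steps ran in Python 3.11.15.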

Additional observations from a re-analysis of the deposited data

How the results depend on the processing

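Of 162 member differences recomputed under 8 alternatives, 155 moved by less than 0.5 on the log2 scale, 7 moved by more, and 0 turned round where the difference was at least 2-fold. Part of these could not move. The rescaling changed nothing because the 2% trimmed means were already equal, and a member with 1 probe set kept its value under the other probe set rules. The count of 155 therefore overstates stability. The differences of Prg2, Epx and Hdc on p53 KO against WT stayed at least 2-fold under each alternative that gave a value. So did those of Prg2, Epx and Cpa3 on DKO against both other arrays. For Epx on DKO against WT, the 75th percentile floor left no value. Hdc had no probe set unique to a transcript and Fcer1a did not reach the 75th percentile floor, so those settings gave no value for them. With the floor at the 75th percentile, 1 of 6 measured members (Prg2) was at least 2-fold lower on DKO against WT, in place of 2 of 7. The share of all genes measured at that floor was 2.96%. Epx then lay under the floor on both arrays, and Mcpt8 differed by at least 0.54 on p53 KO against WT. With a threshold of 1.5-fold, 3 members were higher on DKO against WT (Cpa3, Mcpt8 and Hdc), beside 17.1% of all measured genes, and 4 were lower on DKO against p53 KO (Prg2, Epx, Mcpt8 and Hdc), beside 12.2%. When the probe sets of each gene were averaged, 3 were lower on DKO against p53 KO (Prg2, Epx and Hdc), beside 3.92% of all genes measured that way. The median of all genes on DKO against p53 KO was 0.11 as reported and 0.01 after cyclic loess. On DKO against WT, 62.8% of the genes past 2-fold were higher as reported, 49.4% after quantile normalization and 47.0% after cyclic loess, and on DKO against p53 KO 40.9%, as reported, became 26.5% after cyclic loess. Of 45 list medians, 0 changed sign under quantile normalization or cyclic loess, though a median of 0 could not be counted as changing sign. No paired analysis was possible because each genotype had 1 array. No replicate could be left out for the same reason. Signals near the floor limit what can be said of Fcer1a and the chymase and tryptase genes. For Ms4a2, the limit is that its probe sets disagreed on whether it was detected.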
